A study of Xenopus tropicalis with 30 samples.

Results

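Some transcription start sites of the western clawed frog, *Xenopus tropicalis*, lay inside a stretch that was transcribed from the other DNA strand. These antisense starts were collected by position and strand alone. Start sites and poly(A) sites of 1 strand were joined in the direction of transcription into start-to-end loci, with at most 20000 bases between neighbours, and a locus was closed where a start followed a poly(A) site. A start site on a chromosome was kept if it lay inside a locus of the opposite strand (its host) and more than 1000 bases from every start site of that strand. Of the 69857 start sites in the table, 61965 lay on the 10 chromosomes, and 4516 of these (7.29%) were antisense starts. They lay in 1807 hosts, which were 6.99% of the 25866 loci on the chromosomes.

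The study profiled both ends of transcripts in whole bodies of adult frogs. WTSS-seq counted transcript 5′ ends in RNA depleted of ribosomal RNA, and WTTS-seq counted 3′ ends at poly(A) sites. The animals were 6 adult males and 6 adult females in each assay, and the series design states that the same frogs served for both. A pool of RNA from 3 adult females gave 1 library by CAGE, which reads 5′ ends next to the cap of the RNA, and 2 repeat libraries by WTSS-seq. The labels name no strain, age or treatment for any group.

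Antisense transcription is common in animal genomes. RNA polymerase can start inside a gene on the strand opposite to the gene's own RNA, and the product can be a long noncoding RNA, an unstable transcript or the messenger RNA of a second, overlapping gene. Where both strands of a region are transcribed, the polymerases can meet head to head and both RNAs can pair. The files pair no gene names with the sites and name no genome build, so hosts and antisense starts are given here by position, without gene, exon or sequence, and the whole-body label could not be checked against marker genes.

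Individual WTSS-seq libraries held 1866839 to 6643184 counts, the CAGE library 2641136 and the WTSS-seq pools 1935959 and 9227896. WTTS-seq libraries held 2304469 to 6624765. Of the 6 male WTSS-seq columns, 1 is headed Male3 and 2 are headed Male4, so 3 columns could not be tied to a numbered animal. They were used as males without a number, and results are also given without both columns headed Male4 where that changed them. Female 3 stood apart: 27.9% of its start counts lay on chromosomes, against 75.2% to 89.5% in the other females and 61.6% to 86.3% in males. The male value of 61.6% was that of the first column headed Male4, and the other males had 80.4% to 86.3%. That column was also the smallest individual WTSS-seq library, at 1866839 counts. In whole bodies, fewer cells of a type and less RNA per cell cannot be told apart. Levels of single animals below are counts per 1000000 counts (CPM) after TMM scaling, which sets library sizes by the bulk of the sites. CPM of the CAGE and pool libraries rest on library totals without TMM scaling, so they are not on the scale of the single animals.

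Antisense starts were spread along their hosts. The median position was 0.576 of the host's length and the median distance from the host's first start was 9695.5 bases, with quartiles at 4681.5 and 16792.5 bases. The first 5% of host length held 39 of them and the last 5% held 418. The 1000-base limit always keeps starts away from the host's first end. Elsewhere it acts only near other starts of the host's strand. Between the poly(A) sites of the host lay 2499 (55.3%), between its last start and its first poly(A) site 1124 (24.9%), and between its starts 893 (19.8%). Antisense starts often stood close to a 3′ end of the other strand: 735 (16.3%) lay within 500 bases of an opposite-strand poly(A) site, against 5.44% of the 57449 other chromosome start sites. That comparison is a description, because the rule itself places the starts inside loci that end in poly(A) sites.

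**Figure D1:**
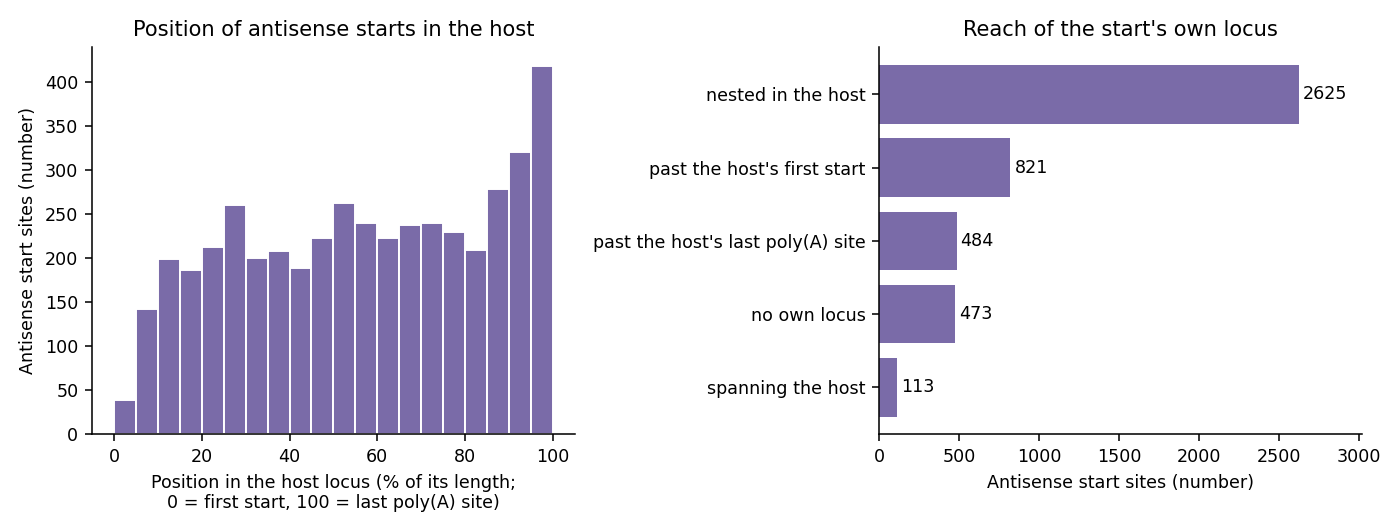
The left panel counts the antisense start sites by their position in the host, in bins of 5% of its length from the first start (0) to the last poly(A) site (100), and the right panel counts them by how far their own locus reaches. The fullest bin is the last one with 418 starts, and 2625 starts have an own locus that lies wholly within the host.

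Most antisense starts had a poly(A) site of their own downstream. On their own strand, 4043 of 4516 (89.5%) belonged to a start-to-end locus, against 87.1% of the other chromosome start sites. The own locus lay wholly within the host for 2625 (58.1%), reached past the host's first start for 821 (18.2%), reached past its last poly(A) site for 484 (10.7%), and spanned the whole host for 113 (2.50%). The remaining 473 (10.5%) had no own locus. The next poly(A) site downstream in the own locus was a median of 1463 bases away, with quartiles at 276.5 and 4854.5 bases.

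Levels and widths of the antisense starts were close to those of other start sites. Their median total over the 15 libraries was 74 counts, and that of the other chromosome start sites was also 74. A total of 1000 counts or more was reached by 370 of them (8.19%), against 8.89% of the others. Site clusters spanned a median of 98 bases (quartiles 52 and 184), against 105 bases (57 and 185). All 12 animals had counts at 887 antisense starts (19.6%), against 19.3% of the other sites. Counts in no animal were found for 78 antisense starts (1.73%), against 1.53% of the other sites. By chromosome, the share of start sites that were antisense lay between 5.94% on chromosome 6 and 10.7% on chromosome 10 (317 of 2969 sites).

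The hosts were long. Their median length was 16567 bases, against 4851.5 bases for all chromosome loci (length enters the rule itself, so this is a description). A single antisense start was found in 946 hosts, 2 or 3 in 500, 4 to 9 in 310, and 10 or more in 51, which together held 701. Antisense starts supplied a median of 51.1% of the counts at a host's antisense and own starts together, with quartiles at 15.9% and 82.0%. Starts of the antisense strand that the rule left out, because they lay near an opposite-strand start, are not counted in these shares. In 915 hosts the antisense starts had more counts than the host's own starts, in 303 they held 90% or more, and in 329 they held 10% or less. Across the 1121 hosts with a mean of 20 or more start counts per animal, the antisense and the sense level were related by a Spearman rho of -0.406. This is a description over hosts of the same libraries, and these hosts were chosen by the sum of both levels.

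The membership rests on the gap allowed within a locus. The host sites on either side of an antisense start were a median of 11022 bases apart. Loci built with gaps of at most 5000 bases gave 562 antisense starts, and gaps of up to 50000 bases gave 13026. The distance to opposite-strand starts mattered less, with 5109 starts at a limit of 500 bases and 3852 at 2000. Some hosts may therefore be neighbouring transcription units joined into 1 locus, and the tables do not tell these from true overlaps.

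The first comparison asked whether males and females spend different shares of their start counts on antisense starts. The share was 4.49% ± 0.586 in males and 4.98% ± 1.52 in females (SD, n = 6 each). From lowest to highest it ran from 3.45% over a median of 4.56% to 5.13% in males, and from 1.97% over 5.63% to 6.05% in females. The sexes overlapped, and the difference of -0.496 points lay within the spread between animals (exact two-sided permutation test over 924 splits, p = 0.511, smallest possible p 0.00216).

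That value turned on 1 library and 1 site. Female 3 had the lowest share (1.97%), and leaving it out gave a difference of -1.10 points (exact permutation p = 0.0108). Leaving out the lowest female could only move the difference toward females, so this p is a description. As a share of counts on chromosomes, antisense starts held 5.65% ± 0.391 in males and 6.58% ± 0.297 in females (n = 6 each, exact permutation p = 0.00433). The lowest male had 5.17% and the highest 6.26%, and the lowest female had 6.22% and the highest 7.07%, so only the highest male and the lowest female crossed. The highest female here was female 3. A single start on chromosome 4, described below, supplied much of the male share. Without it the shares were 2.83% ± 0.304 in males and 4.89% ± 1.50 in females (exact permutation p = 0.0152, n = 6 each). That start was picked as the highest in these same data and is male-rich. Leaving it out could only move the difference toward females, so this p is a description. With each site counted once, antisense starts were 6.35% ± 0.100 of the sites seen in a male and 6.54% ± 0.0911 of those seen in a female (exact permutation p = 0.00866, n = 6 each). With loci of shorter or longer gaps the sign turned, to 0.0410 points (exact permutation p = 0.457) and 22.9 points (exact permutation p = 0.00216).

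**Figure D2:**
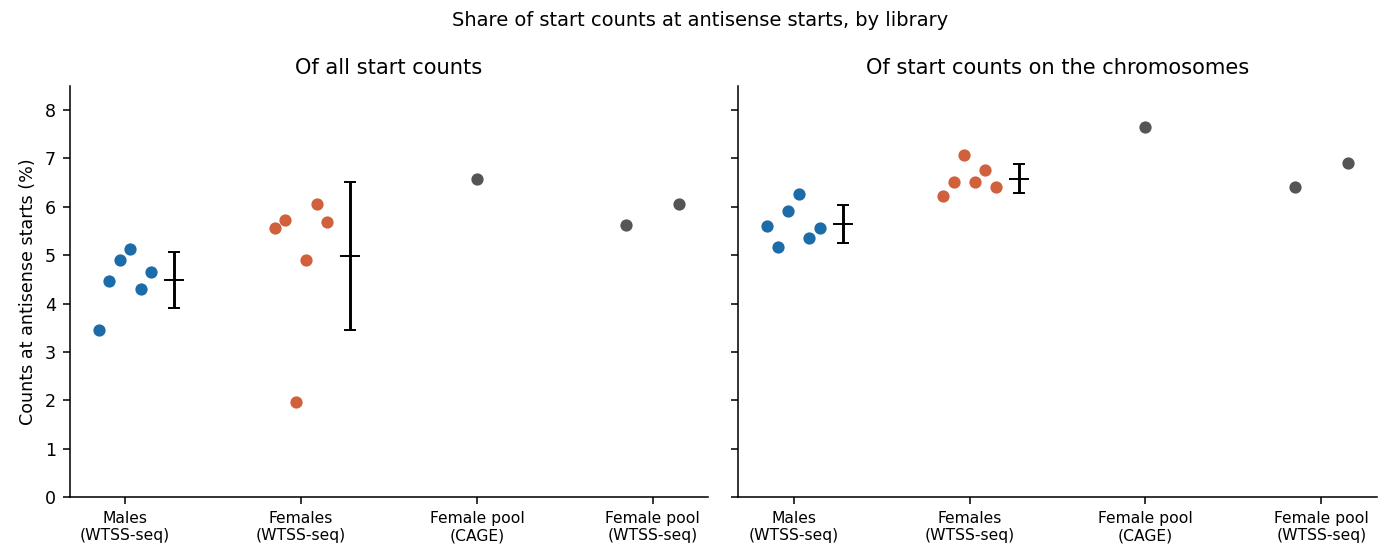
Each point is 1 library, with the share of its start counts that fell on antisense starts in percent, of all start counts on the left and of counts on the chromosomes on the right. Bars beside the 6 males and the 6 females give the mean ± SD. On the left a female at 1.97% lies below all other libraries, and on the right the males lie between 5.17% and 6.26% and the females between 6.22% and 7.07%. The female at 1.97% on the left is the one at 7.07% on the right.

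Inside the hosts, the sexes had like shares on average. The mean antisense share within the 1121 hosts with enough counts was 48.5% ± 0.890 in males and 49.2% ± 1.12 in females (n = 6 each, exact permutation p = 0.273). The balance between the antisense starts kept by the rule and the host's own starts was thus near even in each sex when averaged over hosts. Single hosts differed widely, as given below. Female 3 was the highest animal at 51.4%, and the other females lay between 48.4% and 48.9%. Without the first column headed Male4 the difference was -1.02 points (exact permutation p = 0.0476).

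Single antisense starts were compared between 6 males and 6 females by edgeR's quasi-likelihood test, with p-values adjusted over all 15050 start sites that passed the filter on low counts. Of the 4516 antisense starts, 941 passed that filter and 333 of these did not pass the threshold of 0.05. Of the 941, 273 (29.0%) were higher in males, the direction of 33.6% of all start sites tested. Another 335 (35.6%) were higher in females, against 36.9% of all sites. The median log2 fold change, male over female, was -0.32 over the antisense starts tested and -0.19 over all sites tested. So the share of antisense starts called was near the background for females and lower than it for males, without a test of that difference. All males lay above all females at 210 of the 941 (background 26.0%), and all females above all males at 222 (background 24.6%). Directions are relative to the TMM scaling. With library totals alone the median of all sites moved by -0.66 on the log2 scale, which left 231 antisense starts called toward males and 440 toward females. Of all sites, 26.8% and 45.8% were then called in these directions. The male share of the calls was 34.4% among antisense starts and 36.9% among all sites, against 44.9% and 47.7% with TMM.

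**Figure D3:**
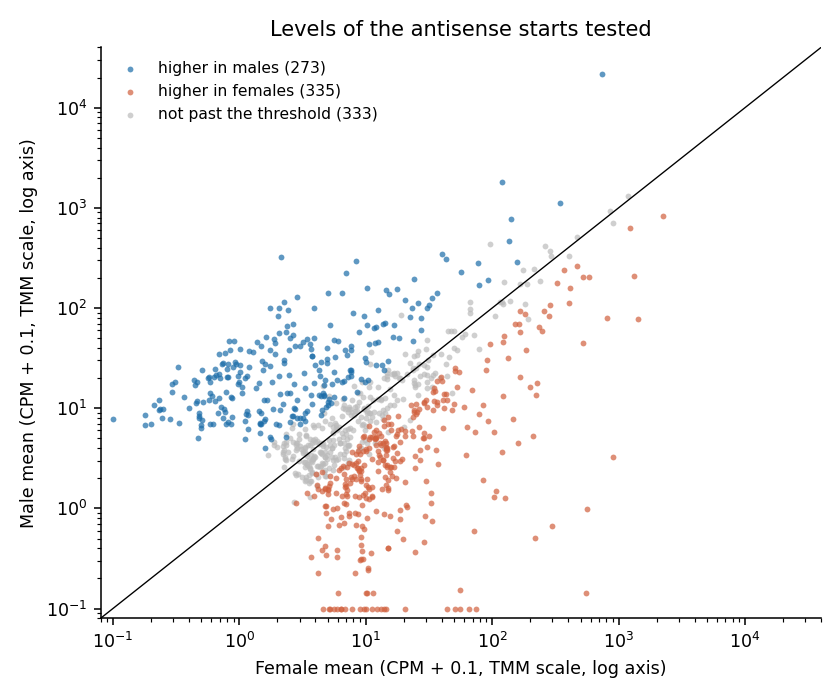
Each point is 1 of the 941 antisense starts tested, with its mean level in 6 females on the horizontal and in 6 males on the vertical log axis, in CPM with 0.1 added. The 273 starts higher in males and the 335 higher in females lie on both sides of the line of equal levels, the site on chromosome 4 stands alone at the upper end, and the row at the lower edge holds the 23 starts with no male count. These 23 passed the filter on low counts through the females alone.

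The calls were also counted by position in the host, beside a background over all start sites of 33.6% toward males and 36.9% toward females. Between the host's poly(A) sites 144 of 493 starts were called toward males and 171 toward females, between the last start and the first poly(A) site 73 and 85 of 242, and between the host's starts 56 and 79 of 206. Starts whose own locus lay within the host had 185 and 221 of 650 called. None of these splits was tested. Over all 4516 antisense starts, counts were found in males only at 192 (4.25%) and in females only at 510 (11.3%), against 5.01% and 11.6% of the other chromosome start sites. In every male and no female there were counts at 62 starts (1.37%), against 1.52% of the other sites, and in every female and no male at 112 (2.48%), against 3.17%.

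A group of 10 antisense starts had the highest mean levels. The first, on chromosome 4 (plus strand, 12626599), lay 20540 bases into a host of 33805 bases that runs on the minus strand from 12647139 to 12613335. In males its level was 16830.4 CPM at the lowest, 19156 at the median and 31132 at the highest, against 429.7, 583 and 1519 CPM in females. No female came near a male, and the log2 fold change was 4.87 ± 0.42 (SE, edgeR adjusted p = 9.06e-08). The host's own starts had 6577 ± 5041 CPM in males and 219.8 ± 164 in females. Both strands of that stretch thus had their higher mean in males, and 6 other antisense starts of the host had means of 0.900 to 98.9 CPM in males and 0 to 1.64 CPM in females. The poly(A) sites at hand carried little of this: the host's had 38.0 ± 15.1 CPM in males and 0.822 ± 1.25 in females, and the single one of the start's own locus, 3382 bases downstream, had 0.126 ± 0.309 CPM in males and 0 in females.

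Both other male-rich starts of that group lay on chromosome 1. The start at 182141490 (plus strand) had 1099.7, 1641 and 2719 CPM as lowest, median and highest value in males, and 33.5, 121 and 184 CPM in females. Its log2 fold change was 3.93 ± 0.41 (edgeR adjusted p = 5.29e-07), in a short host of 4242 bases whose own starts had 8.86 ± 19.7 CPM in males and 1.52 ± 3.74 in females. The start at 43709935 (plus strand) had 792, 1092 and 1489.6 CPM in males and 203, 349 and 493 CPM in females (log2 1.70 ± 0.29, edgeR adjusted p = 6.49e-05). The sexes did not overlap at either start. Under library totals alone the second one missed the threshold (adjusted p = 0.0514).

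Higher in females were 4 of the 10. On chromosome 5 (plus strand, 89402076), 63 bases from the last poly(A) site of its host, males had 44.8, 83.1 and 106 CPM and females had 1015, 1296 and 2258 CPM. This was the steepest of the 4, at a log2 of -4.19 ± 0.33 (edgeR adjusted p = 4.99e-08), while the host's own single start had 3.08 ± 5.83 CPM in males and 0 in females. Elsewhere on that chromosome (plus strand, 27979060) the values were 127, 221 and 262 CPM in males against 804, 1251 and 2046 CPM in females, a log2 of -2.66 ± 0.31 (edgeR adjusted p = 1.18e-06). On chromosome 3 (plus strand, 97722344) males had 539, 773 and 1115 CPM and females had 1465, 2439 and 2754 CPM (log2 -1.46 ± 0.29, edgeR adjusted p = 3.15e-04). At these 3 starts every female exceeded every male. The start on chromosome 10 (minus strand, 7228489) overlapped, with 390.4, 675 and 809.6 CPM in males and 721, 1339.6 and 1512 CPM in females (log2 -0.98 ± 0.29, edgeR adjusted p = 0.00659). It lost the call without male 1 (adjusted p = 0.0694), without the second column headed Male4 (0.0519) and without both columns headed Male4 (0.103).

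The remaining 3 of the 10 did not pass the threshold. On chromosome 6 (plus strand, 89454648) males had 939, 1238 and 1797 CPM and females had 1028, 1141 and 1540.0 CPM (log2 0.14 ± 0.25, edgeR adjusted p = 0.639). On chromosome 2 (plus strand, 56458314), 150 bases from a poly(A) site of the host, the values were 268, 982 and 1668 CPM in males and 348, 895 and 1261 CPM in females (log2 0.10 ± 0.43, edgeR adjusted p = 0.846). On chromosome 7 (minus strand, 114613955) they were 422, 747 and 954 CPM in males and 332, 993 and 1168 CPM in females (log2 -0.37 ± 0.32, edgeR adjusted p = 0.316, but 0.0378 with library totals alone). The ranges of the sexes overlapped widely at all 3. In each of these hosts the antisense starts held over 99% of the counts at antisense and own starts, at 99.2%, 99.9% and 99.7%.

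The 6 antisense starts with the largest rise in males had female means of 2.02 CPM or less. On chromosome 4 (minus strand, 115969401), 6 males had 4.31, 5.53 and 13.7 CPM as lowest, median and highest value, and no single female had a count. The start was not absent from female RNA, since the WTSS-seq pools had 5 and 0 counts there (2.58 and 0 CPM). From 157 male counts and a floor of 3 counts over the single females, the level was at least 69.0-fold higher in males (edgeR adjusted p = 4.08e-06). Without the second column headed Male4 the bound was 57.3-fold. This bound and those below rest on counts summed over animals and leave out the spread between animals. The host's own starts went the other way in value, at 0.134 ± 0.328 CPM in males and 8.41 ± 4.24 in females. Another 2 of the 6 shared 1 host on chromosome 2 (plus strand, 37080879 to 37097519). The start at 37090330 had 26.0, 173 and 1066 CPM in males and 0.356, 1.11 and 6.78 CPM in females (log2 7.35 ± 1.00, edgeR adjusted p = 6.59e-06). The start at 37091446 had 3.37, 12.0 and 54.3 CPM in males and 0, 0 and 0.678 CPM in females (log2 6.49 ± 0.97, edgeR adjusted p = 1.72e-05). Males differed among themselves by more than an order of magnitude at both. The WTSS-seq pools of female RNA had 7 and 6 counts at the first and 1 and 5 at the second, and CAGE had 0 and 19. That all males lay above all females was a condition for naming these 6 starts, so their separation is a description. The start at 115969401, with no count in a single female, passed the filter on low counts through the males alone. The first start had a log2 of 8.15 without female 3 and 6.65 without the first column headed Male4, and the second 7.18 without female 3. Their common own locus had 129 ± 202 CPM of poly(A) counts in males and 1.24 ± 2.32 in females.

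The last 3 of these male-rich starts had narrower male ranges. On chromosome 9 (plus strand, 58889809) males had 9.04, 22.3 and 52.0 CPM and females had 0, 0.260 and 0.485 CPM (log2 6.49 ± 0.60, edgeR adjusted p = 1.71e-07). The WTSS-seq pools of female RNA had 0 and 66 counts there, or 0 and 7.15 CPM without TMM scaling. On chromosome 2 (minus strand, 167301285) the values were 7.38, 17.5 and 25.9 CPM in males and 0, 0 and 0.590 CPM in females (log2 6.46 ± 0.70, edgeR adjusted p = 7.52e-07). The pools had 3 and 1 counts at that start. On chromosome 9 (plus strand, 11151787) they were 4.68, 8.40 and 12.1 CPM in males and 0, 0 and 0.356 CPM in females. With 155 male and 2 female counts the level at that last start was 102-fold higher in males, with a 95% counting interval of 27.8 to 851 (edgeR adjusted p = 2.10e-07). That ratio rests on the single animals, and the pools had 4 and 3 counts at this start (2.07 and 0.325 CPM).

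The antisense starts with the largest fall in males were close to absent there. On chromosome 4 (minus strand, 35850671) the 6 males had 1 count in all and the 6 females 18161. Females had 240.1, 450.3 and 1253 CPM as lowest, median and highest value, 13783-fold above males with a 95% counting interval of 2474 to 544438 (edgeR adjusted p = 1.09e-08). Its own locus, which spans the host, ended in poly(A) counts of 0 in males and 300.2 ± 90.5 CPM in females. Apart from that 1 count, the counts at this start and at the poly(A) site of its locus came from females. The host's own start had 0 CPM in males and 37.6 ± 30.9 in females.

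At the other 5 of these starts no male had a count. The start on chromosome 8 (minus strand, 52979797) had 49.6, 65.9 and 80.3 CPM in females and was at least 446-fold lower in males (edgeR adjusted p = 3.86e-08). Poly(A) counts of its own locus were 1.12 ± 1.40 CPM in males and 126 ± 39.8 in females. The start on chromosome 3 (minus strand, 133999529) had 17.1, 34.8 and 143 CPM in females and was at least 459-fold lower in males (edgeR adjusted p = 4.11e-06), or 234-fold without female 5. Its own locus had 0.0496 ± 0.121 CPM of poly(A) counts in males and 1068 ± 255 in females. At both loci the start and the poly(A) counts thus lay almost wholly in females.

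The pair on chromosome 3 at 129705764 and 129707301 (plus strand) shared a host and an own locus. The first had 8.47, 80.8 and 125 CPM in females and was at least 537-fold lower in males (edgeR adjusted p = 1.33e-06). The second had 16.3, 46.6 and 65.0 CPM in females and was at least 301-fold lower (edgeR adjusted p = 2.35e-07). Here the own locus had next to no 3′ ends in either sex, with poly(A) counts of 0 in males and 0.0601 ± 0.147 CPM in females. That locus was not absent from males at its 5′ end. Its upstream start, at 129704567, was called the other way, higher in males (log2 3.41, edgeR adjusted p = 1.99e-05). On the same chromosome (plus strand, 89283788) females had 13.5, 19.3 and 214 CPM, and the level was at least 261-fold lower in males (edgeR adjusted p = 4.37e-05). The highest value was that of female 3, and the other 5 females lay between 13.5 and 19.6 CPM. Without female 3 the bound was 114-fold.

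Whether the antisense and the sense strand of a host changed alike was tested as a strand-by-sex term in edgeR, with both strands of each animal in 1 fit. Hosts with at least 50 counts on each strand over the 12 animals numbered 814 of 1807. The antisense to sense ratio was higher in males at 131 of these (16.1%) and higher in females at 153 (18.8%), with p-values adjusted over the 814. The ratio is taken within a library and so does not depend on the scaling. The median size of these 284 changes was 4.18 on the log2 scale. Antisense here means the starts kept by the rule and sense the host's own starts, so other starts of the antisense strand are not counted. At 148 of the 284 the leading strand differed between the sexes: antisense led in males and sense in females at 67, and sense led in males and antisense in females at 81. Some hosts are counted on both strands of the same place. The 284 fell into 267 groups that shared no start site, and the changes of leading strand into 140.

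**Figure D4:**
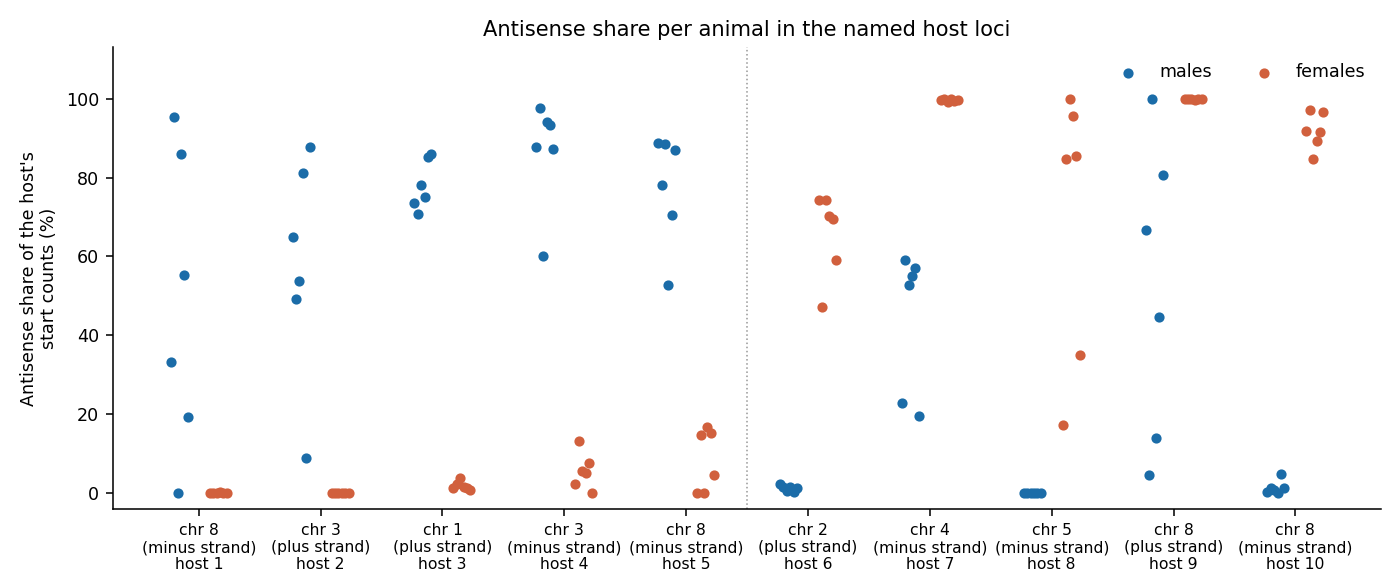
Each point is 1 animal, with the antisense starts' percent of the counts at a host's antisense and own starts together. Males are left of females, for the 5 hosts with the largest rise and the 5 with the largest fall of the ratio in males. In host 3 males lie between 70.7% and 85.9% and females between 0.896% and 3.85%, and in host 10 males lie between 0% and 4.90% and females between 84.6% and 97.1%. Hosts 1 and 9 are the same place read from the minus and the plus strand.

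The clearest rise in males was on chromosome 1 (plus strand, 45298870 to 45321674). Its 9 antisense starts summed to 51.8, 79.6 and 126 CPM as lowest, median and highest male value and to 0.907, 1.90 and 8.13 CPM in females. Its own starts summed to 14.9, 18.8 and 41.8 CPM in males and to 95.1, 133 and 203 CPM in females. Each strand separated the sexes, in opposite directions, and the antisense share was 78.1% ± 6.24 in males and 1.87% ± 1.07 in females (log2 ratio 7.71 ± 0.57, edgeR adjusted p = 3.40e-07). The antisense starts lay 1250 to 6760 bases into the host and the main sense start 12942 bases in. They were inside the locus only by its first start, which had 6.14 ± 7.31 CPM in males and 0.0404 ± 0.0991 in females. Poly(A) counts of the host were 1.25 ± 2.39 CPM in males and 0 in females.

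**Figure D5:**
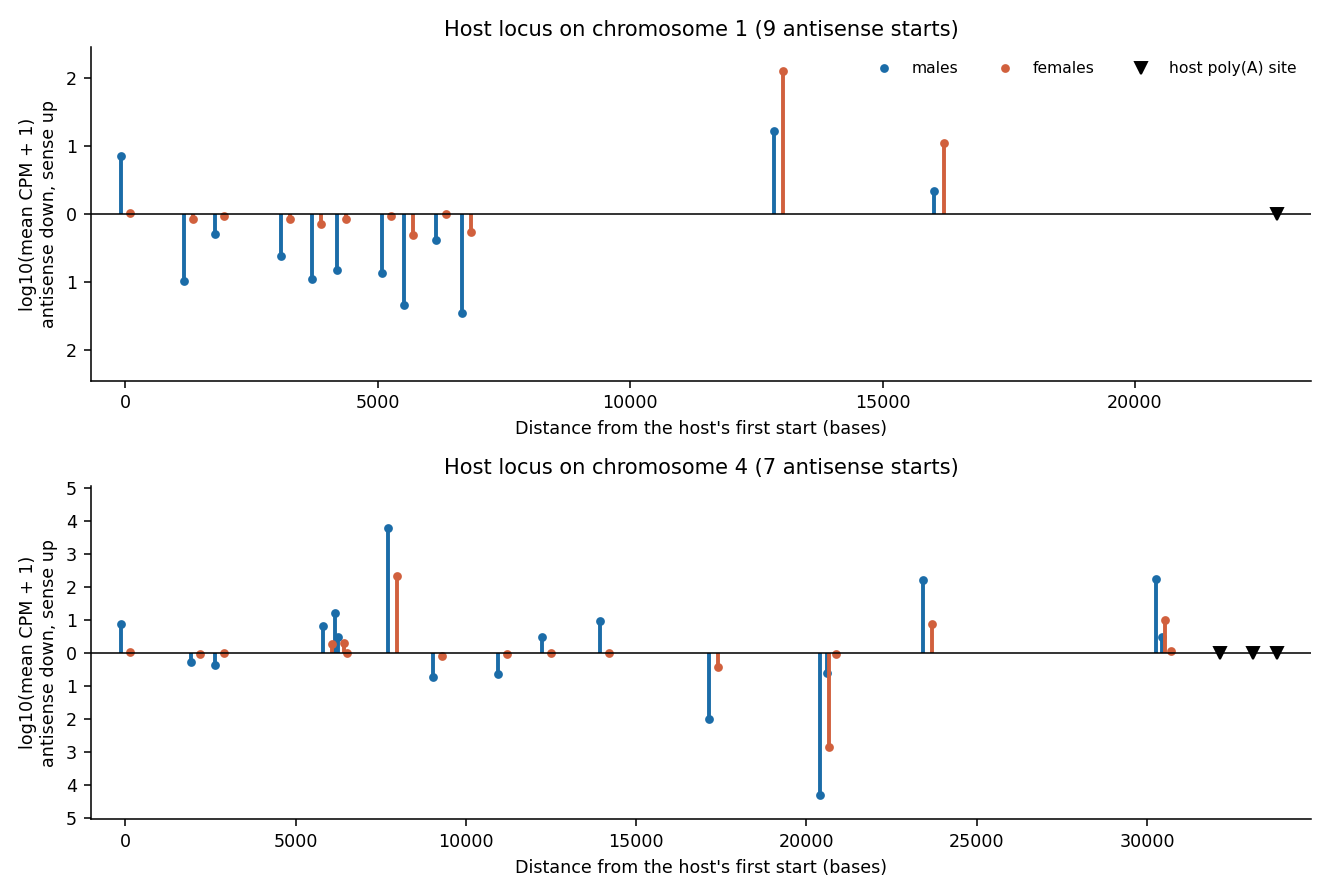
Start sites of 2 hosts by distance from the host's first start in bases, with the mean level of 6 males and 6 females as log10 of CPM + 1, sense starts upward and antisense starts downward, and triangles for the host's poly(A) sites. On chromosome 1 the antisense starts reach higher in males (up to 27.5 CPM) and the main sense start higher in females (124 CPM), while on chromosome 4 the starts of both strands reach higher in males.

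The other 4 hosts with the largest rise held a single antisense start each. On chromosome 3 (minus strand, 79732747 to 79770160) the antisense share was 60.0%, 90.6% and 97.7% as lowest, median and highest value in males and 0%, 5.34% and 13.3% in females (log2 7.63 ± 1.03, edgeR adjusted p = 6.39e-05). Poly(A) counts of that host were 35.5 ± 4.51 CPM in males and 112 ± 16.2 in females (log2 -1.66 ± 0.26, edgeR adjusted p = 9.36e-05). On chromosome 8 (minus strand, 92962266 to 92982464) the share was 52.7%, 82.5% and 88.8% in males and 0%, 9.68% and 16.7% in females (log2 5.78 ± 1.04, edgeR adjusted p = 5.26e-04). The sexes did not overlap in either host. On chromosome 3 (plus strand, 17443706 to 17455385) males had 8.89%, 59.5% and 87.6% and the females had no antisense count (edgeR adjusted p = 0.00100). The fifth, on chromosome 8 (minus strand, 49932091 to 49949284), was uneven among males, at 0%, 44.4% and 95.3%, with at most 0.282% in females (log2 10.44 ± 1.56, edgeR adjusted p = 1.25e-04). Over single animals left out that log2 ran from 9.67 without the column headed Male3 to 11.15 without the first headed Male4. Its antisense start is the sense start of a plus-strand host from 49936466 to 49974124, which appears among the falls with the mirrored ratio.

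The falls were as wide. On chromosome 8 (minus strand, 16962710 to 16988603) the single antisense start held 0%, 1.04% and 4.90% in males and 84.6%, 91.6% and 97.1% in females (log2 -10.45 ± 0.98, edgeR adjusted p = 1.74e-06, and -11.06 without male 5). The host's own starts had 80.7 ± 40.2 CPM in males and 1.57 ± 0.706 in females, and its poly(A) counts were 55.5 ± 36.8 CPM in males and 0.699 ± 1.35 in females (log2 6.26 ± 1.10, edgeR adjusted p = 2.22e-04). Both ends of the host thus had their higher mean in males, while its antisense start, at 0.684 ± 0.502 CPM in males and 22.8 ± 11.1 in females, was the leading strand in females. A host on chromosome 2 (plus strand, 94176364 to 94216501) held 4 antisense starts. Its antisense share was 0.290%, 1.42% and 2.39% in males and 47.1%, 69.9% and 74.4% in females (log2 -7.37 ± 0.65, edgeR adjusted p = 1.67e-06), and its poly(A) counts were 38.3 ± 15.4 CPM in males and 2.42 ± 1.61 in females (log2 3.98 ± 0.58, edgeR adjusted p = 4.65e-05).

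A further 2 falls rested on unlike patterns. On chromosome 4 (minus strand, 35534909 to 35561778) the share was 19.6%, 54.0% and 59.0% in males and 99.0%, 99.7% and 100% in females (log2 -8.20 ± 0.75, edgeR adjusted p = 1.67e-06). On chromosome 5 (minus strand, 134112454 to 134144884) the 6 antisense starts had no male count, and the share in females ran from 17.3% over 85.0% to 100% (edgeR adjusted p = 0.00528). Its poly(A) counts were 17.3 ± 6.13 CPM in males and 0.463 ± 0.876 in females (log2 5.31 ± 1.18, edgeR adjusted p = 0.00146).

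In the 5 hosts richest in antisense starts, those starts held 81.3% to 99.3% of the counts at antisense and own starts over all libraries. On chromosome 9, a host of 17428 bases (minus strand, 58875689 to 58893116) held 34 antisense starts, which formed 14 loci of their own. Summed, they had 131, 243 and 426 CPM as lowest, median and highest male value and 5.81, 7.71 and 11.4 CPM in females. The sexes did not overlap in that sum. Near it, a host from 58798355 to 58819046 on the minus strand held 33, with 43.3, 89.6 and 149 CPM in males and 1.16, 2.60 and 4.74 CPM in females. Few of these starts passed the filter on low counts (6 of 34 and 3 of 33), so no tally of their calls is given. In neither did the ratio of the strands pass the threshold (edgeR adjusted p = 0.780 and 0.486), with antisense shares of 96.9% ± 4.79 and 83.9% ± 14.1 in males and 98.1% ± 4.54 and 75.7% ± 17.6 in females.

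On chromosome 10 (plus strand, 39678702 to 39699053), 21 antisense starts summed to 298, 480 and 1032 CPM in males and to 10.8, 14.8 and 23.9 CPM in females, without overlap. The host's poly(A) counts were 87.8 ± 13.2 CPM in males and 1.87 ± 1.48 in females (log2 5.56 ± 0.71, edgeR adjusted p = 1.35e-05), while its own start had 4.15 ± 0.894 CPM in males and 0.208 ± 0.239 in females. On chromosome 4 (minus strand, 36426947 to 36456072), 21 antisense starts summed to 148, 154 and 191 CPM in males and to 222, 398 and 473 CPM in females. There too the sexes did not overlap. In neither the host on chromosome 10 nor that on chromosome 4 did the ratio of the strands pass the threshold (edgeR adjusted p = 0.595 and 0.798). Antisense shares there were 99.1% ± 0.438 and 91.4% ± 3.49 in males and 98.7% ± 1.56 and 92.6% ± 3.56 in females. The fifth, on chromosome 3 (minus strand, 89249305 to 89324817), was the longest of these hosts at 75513 bases and held 20. Its antisense share was 15.4% ± 10.8 in males and 87.5% ± 4.43 in females (log2 -5.56 ± 0.79, edgeR adjusted p = 9.14e-05). Poly(A) counts of that host did not pass the threshold (log2 -0.50 ± 0.63, edgeR adjusted p = 0.528).

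The 3′ ends of the hosts were read from WTTS-seq of the same animals. Summed poly(A) counts passed the filter in 998 of 1807 hosts. With p-values adjusted over all 12576 loci tested, 272 hosts (27.3%) were higher in males, where 26.0% of all loci were, and 231 (23.1%) were higher in females, where 26.3% were. The share of hosts called was thus near the background for males and lower than it for females, without a test of that difference. The median log2 fold change was 0.0060 over hosts and -0.24 over all loci tested. Library totals alone moved the median of all loci by -1.37 on the log2 scale, with 143 hosts called toward males and 481 toward females. The male share of the host calls was 54.1% with TMM and 22.9% with totals, against 49.7% and 22.4% over all loci.

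CAGE gave a second reading of the antisense starts in pooled females. They took 6.58% of the CAGE counts (95% Wilson interval 6.55% to 6.61%), against 5.63% and 6.06% in the WTSS-seq pools (5.60% to 5.67% and 6.05% to 6.08%). These intervals cover counting error only, and there is 1 CAGE library. A CAGE count was found at 2057 of 4516 antisense starts (45.5%, 44.1% to 47.0%), against 48.5% (48.1% to 48.9%) of the other chromosome start sites. Of 153 antisense starts with 100 counts or more in both WTSS-seq pools, 11 (7.19%) had no CAGE count, against 5.39% of the others.

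The 5 starts with most CAGE counts held 18.5% of the 173729 CAGE counts at antisense starts. The most, 14325 (5424 CPM), fell on a site of 3 bases on chromosome 3 (minus strand, 16290816), which had 0 counts in the 14 WTSS-seq libraries. Without that site, antisense starts took 6.07% of the CAGE counts. On chromosome 6 (minus strand, 130451558) there were 5201 CAGE counts against 7 and 44 in the WTSS-seq pools, or 1969 CPM against 3.62 and 4.77. Single animals had 38.8, 72.6 and 80.9 CPM at that start in males and 1.02, 4.77 and 9.58 CPM in females (log2 3.69 ± 0.43, edgeR adjusted p = 1.46e-06), so the sex with the lower level was the one pooled for CAGE. A start on chromosome 9 (minus strand, 1126638) had 4107 CAGE counts and 19 and 600 pool counts. In single animals it had 0, 0 and 0.268 CPM in males and 3.39, 9.77 and 20.7 CPM in females. The sexes did not overlap, and the start, with 1 male count against 309 female counts, did not pass the filter and was not tested.

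The other 2 starts with most CAGE counts also had 72.3 CPM or more in each WTSS-seq pool. On chromosome 6 (minus strand, 750963) the CAGE level was 1896 CPM and the pool levels 72.3 and 291 CPM, with 0, 0.227 and 1.72 CPM in males and 8.81, 197 and 435 CPM in females (log2 -9.51 ± 0.96, edgeR adjusted p = 3.69e-07). On chromosome 9 (minus strand, 15429371) CAGE gave 1326 CPM and the pools 1895 and 1022 CPM, with 0.351, 2.81 and 6.03 CPM in males and 469, 735 and 1589 CPM in females (log2 -8.21 ± 0.65, edgeR adjusted p = 4.93e-08). All females lay above all males at both starts. The own locus of that start on chromosome 9 had poly(A) counts of 0.385 ± 0.484 CPM in males and 469 ± 58.5 in females. Conversely, 3 of the 10 highest antisense starts were almost missed by CAGE. The starts at 89454648 on chromosome 6, 182141490 on chromosome 1 and 7228489 on chromosome 10 had 6, 7 and 13 CAGE counts, against 11050, 2184 and 10120 counts in the deeper WTSS-seq pool. In CPM, CAGE gave 2.27, 2.65 and 4.92, the deeper pool 1197, 237 and 1097, and the smaller pool 1621, 150 and 1293.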

How the data were processed

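The deposited values are raw counts of reads at each site, not normalized, per the file headers: 15 libraries of start sites and 12 of poly(A) sites, so 27 of the 30 labelled libraries were used. No site has a total under 25 counts in either table. The sources used here do not give the aligner, the site clustering or the genome build. Positions, which count from 0 in the tables, were shifted to count from 1. Replicates are separate animals per the labels. The members, lists and tests were chosen with earlier results of these data known.

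Sites and loci were tested in edgeR 4.0.16 under R 4.3.3 (glmQLFTest, TMM factors, filterByExpr grouped by sex), with Benjamini-Hochberg adjusted p under 0.05 as the threshold. The strand-by-sex test had a term per animal. Values per animal were compared with exact permutation tests, and 0.5 was added to each strand before shares within hosts were averaged. Alternatives used DESeq2 1.42.0 and limma 3.58.1, and values were summarised with Python 3.11.15, pandas 2.3.3 and scipy 1.17.1. On simulated counts, the start site test recovered 31.8% of 2-fold and 100% of 4-fold changes, the strand test 20.2% and 86.0%, and the poly(A) test 52.1% and 97.7%. The simulated counts had the same dispersion at every feature, and only changed features that passed the filters were scored. These rates are therefore not the power of the tests on these animals.

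Named starts are the 10 highest, the 6 largest changes in each direction among non-overlapping calls with 1 CPM or more, and the 5 with most CAGE counts. Named hosts are the 5 richest in antisense starts and the 5 largest changes of the strand ratio in each direction with 5 CPM or more on each strand.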

Additional observations from a re-analysis of the deposited data

Results flagged for a closer look

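In groups of 6 animals, a highest or lowest animal can stand far from the others, and chance alone flags about 1 in 20 such groups. Female 3 was the animal set apart most often. It had the lowest antisense share of start counts (1.97%, the others 4.89% to 6.05%) and the highest mean antisense share within hosts (51.4%, the others 48.4% to 48.9%). It was also low at 114613955 on chromosome 7 (332 CPM, the others 856 to 1168). It was high at 37090330 on chromosome 2 (6.78 CPM, the others 0.356 to 2.03) and at 89283788 on chromosome 3 (214 CPM, the others 13.5 to 19.6).

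Other females stood apart at single starts. Female 2 was high at 12626599 on chromosome 4 (1519 CPM, the others 429.7 to 810.2) and at 11151787 on chromosome 9 (0.356 CPM, the others at most 0.121). Female 4 was high at 89454648 on chromosome 6 (1540.0 CPM, the others 1028 to 1194), and female 5 at 35850671 on chromosome 4 (1253 CPM, the others 240.1 to 614).

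Among males, the first column headed Male4 was low at 130451558 on chromosome 6 (38.8 CPM, the others 65.2 to 80.9), high at 750963 on chromosome 6 (1.72 CPM, the others at most 0.268), and low in the antisense share of the host on chromosome 3 from 79732747 (60.0%, the others 87.3% to 97.7%). The second column headed Male4 had the only male count at 35850671 on chromosome 4 and at 1126638 on chromosome 9, each 0.268 CPM. Male 5 had 4.90% antisense counts in the host on chromosome 8 from 16962710, where the others had at most 1.29%.

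Outside the comparison of the sexes, 56 of the 78 antisense starts with no count in any animal had a CAGE count, and at 47 of the 78 CAGE supplied 90% or more of the site's total. Among the other chromosome start sites, 880 had no count in any animal. Of these, 698 had a CAGE count, and at 545 CAGE supplied 90% or more. The pattern was thus not particular to antisense starts.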

How the results depend on the processing

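The gap that builds the loci changed the most. At 5000 and 50000 bases, the male minus female share of start counts was 0.0410 and 22.9 points. The share within hosts differed by 0.306 (exact permutation p = 0.823) and -1.05 points (exact permutation p = 0.00649). Antisense starts called higher in males and in females were 30 and 32 of 92 (32.6% and 34.8%) at 5000 bases. At 50000 bases they were 950 and 995 of 2770 (34.3% and 35.9%). Of all start sites, 33.6% and 36.9% were called, so these shares stayed near the background. Hosts called for the strand ratio were 18 and 18 of 136 at 5000 bases, and 386 and 429 of 1821 at 50000. The share of start counts passed the exact test, which it did not pass as reported, without female 3 (-1.10 points), on chromosome counts (-0.933), with each site once (-0.193) and without the highest site (-2.07). Leaving out female 3 or the highest site could only move the difference toward females. In the other direction, the share passed with gaps of 50000 bases (22.9 points). Over single animals left out the share of start counts ran from -1.10 to -0.283 points, and the share within hosts from -1.02 to -0.271 (exact permutation p = 0.0476 without the first column headed Male4).

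Without the filter, 987 of 4438 antisense starts (22.2%) were called toward males and 1075 (24.2%) toward females, against 25.6% and 25.4% of all sites. By poly(A) counts, 446 of 1807 hosts (24.7%) were then called toward males and 286 (15.8%) toward females, against 22.0% and 16.8% of all loci. Library totals gave 143 (14.3%) and 481 (48.2%) of 998 hosts by poly(A) counts, against 14.8% and 51.3% of all loci. With each animal left out the calls ran from 284 to 345 and from 353 to 408 starts, from 106 to 131 and from 127 to 145 hosts by strand ratio, and from 255 to 313 and from 209 to 246 hosts by poly(A) counts. The starts called were 26.8% to 32.4% and 34.4% to 36.8% of those tested, against 30.7% to 36.1% and 34.5% to 38.2% of all sites. By strand ratio, a minimum of 20 counts per strand gave 210 and 220 of 1399 hosts, and a minimum of 1 gave 215 and 226 of 1732.

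Replicate numbers did not pair the animals: same-numbered males and females deviated together with correlations of 0.0551, -0.2173 and -0.0590 at start sites, and -0.157 to 0.131 at poly(A) sites. With a replicate block over animals 1, 5 and 6 the strand ratio gave 58 and 80 of 549 hosts (53 and 83 without the block). Of 1189 antisense starts, 319 (26.8%) and 307 (25.8%) were called, against 29.5% and 28.1% of all sites. Without the block they were 352 (29.6%) and 375 (31.5%), against 32.5% and 33.1%. The block over 6 numbers gave 248 (24.8%) and 203 (20.3%) of 998 hosts by poly(A) counts, against 23.8% and 24.8% of all loci.

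Of the named starts, 89454648 on chromosome 6 turned to a log2 of -0.56 with library totals. The start at 56458314 on chromosome 2 turned to -0.60 with totals, -0.0056 without the filter, -0.059 with limma-voom, and ran from -0.15 to 0.45 over single animals left out (-0.031 without female 1, -0.0093 without male 6). Neither was called as reported. Causes of these moves were not tested, apart from fewer or more sites and animals entering a fit.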
